A study of Mus musculus with 10 samples.

Results

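The BEX and TCEAL genes are a family of small X-linked genes, and 10 of its members were followed here in cardiomyocytes of infarcted hearts: Bex1, Bex2, Bex3, Bex4, Tceal1, Tceal3, Tceal5, Tceal6, Tceal7 and Tceal8. They are 10 of the 51789 genes in the deposited count table, and the set was chosen by measured values: Bex1, Tceal5 and Tceal7 had higher counts in the transgenic group of these same libraries. The member values of that comparison, and the calls they received in the fit over all genes, are therefore given as a description: the calls are part of what chose the members and are no test of them. A count was found for 9 members, 6 passed the filter on low counts (Bex1, Bex3, Tceal1, Tceal5, Tceal7 and Tceal8), and 4 did not (Bex2, Bex4, Tceal3 and Tceal6).

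BEX stands for brain expressed X-linked, and TCEAL genes are named for their likeness to the transcription elongation factor TFIIS. The products are small proteins, abundant in neurons and in some endocrine and muscle cells, that act mainly by binding other proteins. Bex1 has been linked in the failing heart to the stability of messenger RNAs with AU-rich elements, many of which encode inflammatory mediators, and Bex3 was found as a partner of the neurotrophin receptor Ngfr. Tceal7 is known from skeletal muscle, where it is a target of myogenic regulators.

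RNA sequencing was done on cardiomyocytes isolated at day 4 after myocardial infarction (MI), produced by permanent ligation of the left coronary artery. There were 5 NLC-MI libraries, from non-transgenic littermate control mice, and 5 TgGRK5-MI libraries, from mice whose transgene raises the kinase GRK5 in cardiomyocytes only. Every mouse had an infarct and no sham library was used here, so the comparison is of genotype within infarcted hearts. Each library is from its own mouse, and the labels give neither age nor sex.

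The libraries held between 7968779 and 23381527 counts. Grk5 checked the labels: it lay between 46.5 and 73.1 CPM (counts scaled to a common library size with TMM factors) in control libraries and between 552 and 1700 CPM in transgenic ones. The 12 cardiomyocyte markers were all present, with summed levels of 64363 to 167168 CPM for NLC-MI and 68148 to 132302 for TgGRK5-MI. Of the neuronal markers, Chat and Syt1 were at 0 in every library, and the summed level of the list was 26.6 to 121 CPM for NLC-MI and 55.2 to 91.8 for TgGRK5-MI. No summed marker list, of cardiomyocytes or of 9 other cell types, was above every NLC-MI library in more than 1 of the 5 TgGRK5-MI libraries. Gene by gene, all 11 macrophage markers had a log2 fold change above 0 (median 0.21, 0 at an unadjusted p under 0.05 and 0 at an adjusted p under 0.10 in edgeR and in DESeq2), and 0 of 5 atrial markers did (median -0.70, 1 at that unadjusted p); their part in the member values was not tested. All 10 members are X-linked, and Xist had at most 12 counts in any library while the Y-linked Ddx3y was at 63.4 to 92.7 CPM in all 10. This is the pattern of male mice in every library. In bulk samples such as these, fewer cells of a type and less RNA per cell cannot be told apart.

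The stretches just before the transcription start of 3 pairs of members are shown first. Genes with nearly the same start, Bex1 and Bex4 or Bex2 and Bex3, differed in counted level. The counts of Bex2 and Bex4 are uncertain where reads could be split between similar transcripts. The sequences are from RefSeq on GRCm38.p6, taken from the 250 bases before the most upstream start, and all 10 members had such a window. The start so taken is at or within 91 bases of the GENCODE M21 start for every member but Tceal7, whose RefSeq start lies 9.26 kb inside the GENCODE gene, so its stretch and motifs do not describe the start of the longer transcript that overlaps Bex1. Capitals mark bases that differ from, or have no partner in, the other sequence of the pair, and each is written 5′ to 3′ on the strand of its gene. Bex1 (chrX:136215514-136215753, minus strand) and Bex4 (chrX:136138750-136138989, plus strand) shared 237 of 240 bases, or 98.8%:
Bex1: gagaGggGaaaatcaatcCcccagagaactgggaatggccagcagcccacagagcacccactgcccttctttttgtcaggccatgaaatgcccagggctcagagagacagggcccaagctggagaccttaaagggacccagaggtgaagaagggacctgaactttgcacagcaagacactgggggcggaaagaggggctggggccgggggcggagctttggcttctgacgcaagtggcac
Bex4: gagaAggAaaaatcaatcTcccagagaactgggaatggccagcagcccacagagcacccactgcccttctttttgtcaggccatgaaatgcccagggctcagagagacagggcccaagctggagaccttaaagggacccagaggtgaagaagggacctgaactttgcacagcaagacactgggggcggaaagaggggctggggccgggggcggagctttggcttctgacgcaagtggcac
Bex2 (chrX:136068237-136068385, minus strand) and Bex3 (chrX:136270067-136270215, plus strand) shared 148 of 149 bases, or 99.3%:
Bex2: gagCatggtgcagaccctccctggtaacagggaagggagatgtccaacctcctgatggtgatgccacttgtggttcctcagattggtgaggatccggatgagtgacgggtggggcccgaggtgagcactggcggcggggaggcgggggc
Bex3: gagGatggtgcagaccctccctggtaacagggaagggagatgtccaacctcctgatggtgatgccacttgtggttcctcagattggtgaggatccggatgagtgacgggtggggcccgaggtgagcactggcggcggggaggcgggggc
Tceal5 (chrX:136204013-136204070, minus strand) and Tceal7 (chrX:136223837-136223894, plus strand) were identical at 47 of 60 aligned columns, or 78.3%, gaps included:
Tceal5: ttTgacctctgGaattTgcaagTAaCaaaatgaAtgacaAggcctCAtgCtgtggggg
Tceal7: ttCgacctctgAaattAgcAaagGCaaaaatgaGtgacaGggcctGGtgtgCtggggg

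Short motifs were looked for on both strands of the same 250 bases, and their shares among 32851 promoter windows of equal length are given beside them. The GC-box letters GGGCGG were in 6 members (Bex1, Bex3, Bex4, Tceal3, Tceal6 and Tceal8) and in 32.7% of all windows. The letters GGAAA, the core bound by NFAT and other factors, were in 8 members and in 55.6% of all windows, and Bex1, Tceal5 and Tceal7 all held them. In Bex1 and Bex4 one GGAAA overlapped a GGGCGG by 2 bases. The CCAAT box was in 4 members (33.8% of all windows; in Tceal6 it overlapped a GGGCGG by 2 bases), the E-box CAGCTG in Tceal1 and Tceal3 (13.0%), and TATAAA in Bex2 alone (12.4%). TGACGTCA (1.55%) and the MEF2 motif (2.92%) were in no member window, which says only that these letters are not in that stretch. Of these motifs, GGAAA alone was held by each of Bex1, Tceal5 and Tceal7, and it was also in members whose levels overlapped between the genotypes.

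Bex1, Tceal5 and Tceal7 were higher in TgGRK5-MI than in NLC-MI, each by about 3 log2 units, and the 5 libraries of one group did not overlap the 5 of the other. They were the 3 members with an adjusted p under 0.10 and a positive fold change in edgeR's quasi-likelihood test over 15232 genes, a call that 0.0525% of all genes tested received (8 genes; 0.0788% when lower genes are counted too), and Grk5 itself was another of those 8. Groups that did not overlap, with TgGRK5-MI above, were found for 0.584% of all genes tested. Since these values chose the members, nothing is read from the counts.

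Bex1 had 0.793, 1.25, 0.785, 1.08 and 1.51 CPM in NLC-MI replicates 1 to 5. In TgGRK5-MI replicates 1 to 5 it had 11.6, 6.54, 21.3, 7.97 and 8.05 CPM. The lowest transgenic library was above the highest control library, and replicate 3 stood well above the other transgenic ones. The control mean was 1.08 ± 0.309 CPM (SD, n = 5), the transgenic mean was 11.1 ± 6.0 CPM (SD, n = 5), and the fitted log2 fold change was 3.33 with a standard error (SE) of 0.36. Leaving out each library in turn gave log2 fold changes of 2.95 to 3.47. Bex1 lies at chrX:136213972-136215513 on the minus strand (GRCm38, GENCODE M21).

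Tceal7 was at 0.176, 0.121, 0.262, 0.141 and 0.196 CPM in the NLC-MI libraries, which is 2 to 4 counts in each. In the TgGRK5-MI libraries it was at 1.79, 0.960, 2.78, 1.18 and 1.07 CPM, or 11 to 40 counts. The groups were apart, and as for Bex1 the transgenic replicates 3 and 1 were the highest and replicate 2 the lowest. The log2 fold change was 3.15 with an SE of 0.41. The gene spans chrX:136214779-136226100 on the plus strand.

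Tceal5 had no count in NLC-MI replicates 2 and 5 and 3, 1 and 6 counts in replicates 1, 3 and 4, so that its control level was at most 0.282 CPM. In TgGRK5-MI it had 1.43, 0.524, 1.13, 1.83 and 1.66 CPM, from 12 to 32 counts. The groups were again apart, but here replicate 4 was the highest transgenic library and replicate 3 the next to lowest. The log2 fold change was 3.48 with an SE of 0.62, the largest error of the 3 genes. Tceal5 lies at chrX:136200948-136203876 on the minus strand.

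With 1 library left out, Tceal5 was under the adjusted p of 0.10 only without TgGRK5-MI replicate 2, and it was above it in the other 9 fits (adjusted p 0.1002 to 0.321 in edgeR). Tceal7 was above it without NLC-MI replicate 1 or NLC-MI replicate 2, where the count of members called was 1. The log2 fold change of Tceal5 ran from 3.08 to 4.33 in these fits, the latter without NLC-MI replicate 4, and was 6.23 with Xist and Y-linked genes as a covariate. That of Tceal7 ran from 2.86 to 3.29, and both genes rest on control counts of 0 to 6.

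**Figure D1:**
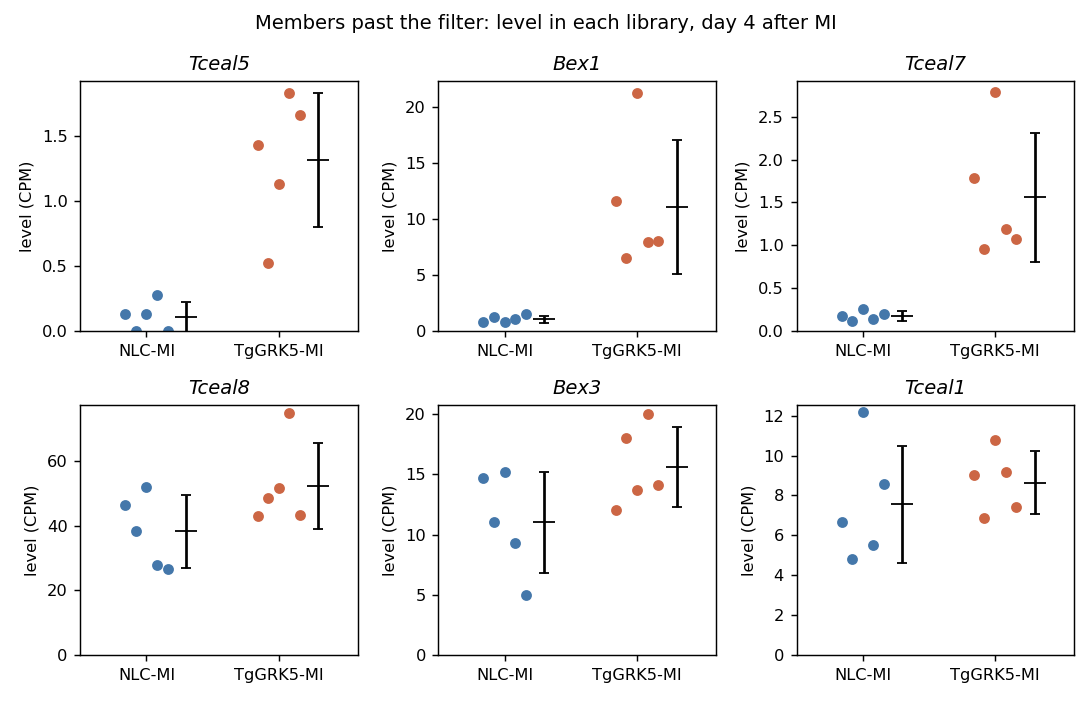
Level (CPM) of the 6 members past the filter in each library, by group; points are libraries in the order of their replicate numbers, and the black mark and bar are the mean and SD of 5. Tceal5, Bex1 and Tceal7 in the upper row have groups that do not overlap, with Bex1 at 0.785 to 1.51 CPM against 6.54 to 21.3 CPM, and Tceal8, Bex3 and Tceal1 in the lower row overlap.

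Bex3, Tceal8 and Tceal1, the most abundant members in NLC-MI, overlapped between the genotypes. Bex3, the partner of Ngfr, was at 14.7, 11.01, 15.2, 9.29 and 4.97 CPM in control libraries and at 12.1, 18.0, 13.7, 20.0 and 14.1 CPM in transgenic ones. Only transgenic replicates 2 and 4 exceeded the highest control library, and the log2 fold change was 0.50 with an SE of 0.28. Tceal8 was at 46.3, 38.3, 52.1, 27.9 and 26.6 CPM in control libraries and at 43.0, 48.6, 51.7, 75.1 and 43.3 CPM in transgenic ones, with a log2 fold change of 0.45 (SE 0.22). Only transgenic replicate 4 was above the control range for Tceal8. Tceal1 was at 6.65, 4.82, 12.2, 5.54 and 8.57 CPM in control libraries and at 9.03, 6.85, 10.8, 9.16 and 7.41 CPM in transgenic ones, with a log2 fold change of 0.21 (SE 0.26). For Tceal1 the highest library was a control. By size of log2 fold change among all genes tested, Tceal5 ranked 4, Bex1 5 and Tceal7 8, while Bex3 ranked 569, Tceal8 737 and Tceal1 2795. The median log2 fold change of all genes tested was 0.00.

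The other members had few or no counts. Bex4, whose start is nearly that of Bex1, had 8, 2, 1, 2 and 2 counts in NLC-MI and 7, 5, 1, 2 and 5 in TgGRK5-MI. Its fitted log2 fold change, from a fit without the filter, was 0.50 with an SE of 0.53, and 1.10 without NLC-MI replicate 1, which held 8 of its 15 control counts. The groups overlapped for Bex4, and no transgenic library was above the highest control one. Bex2 had 0 to 3 counts in either group (log2 fold change 0.53, SE 0.88, and 0.03 to 0.97 with 1 library left out). Tceal3 had 2 to 19 counts in NLC-MI and 1 to 20 in TgGRK5-MI (log2 fold change 0.14, SE 0.55), and its sign turned when NLC-MI replicate 4 or TgGRK5-MI replicate 2 was left out (-0.13 and -0.38). Tceal6 had no count in any of the 10 libraries, which at 3 counts allows up to 0.121 CPM in the deepest library and 0.393 CPM in the shallowest, for counting error only; its transcript is nearly that of Tceal3, so reads could also have been given to that gene. Of family genes outside the 10, Tceal9 was at 45.0 ± 15.3 CPM in control and 53.9 ± 10.9 CPM in transgenic libraries (SD, n = 5 each), and Bex6, on chromosome 16, had 0 to 3 counts.

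Summed over the 10 members, the family had 42.2 to 81.1 CPM in the control libraries, with a median of 56.4, and 76.3 to 115.9 CPM in transgenic ones, with a median of 82.7. The ranges overlapped. Bex1, Tceal5 and Tceal7 together made up 1.45 to 4.03% of that sum in NLC-MI and 9.48 to 24.7% in TgGRK5-MI. Tceal8 and Bex3 together remained the greater part, with 74.7 to 87.6% and 64.1 to 82.1%.

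Levels between genes were compared as CPM per kilobase of exon. In NLC-MI the order of mean levels was Tceal8 (14.9), Bex3 (11.3), Tceal1 (2.69) and Bex1 (0.914), followed by Bex4, Tceal7, Tceal3, Tceal5 and Bex2, all at 0.189 or less. Tceal8 and Bex3 overlapped, Tceal1 and Bex1 were each apart from their neighbours, and the rest overlapped. In TgGRK5-MI, Bex1 came next after Tceal8 and Bex3, at a mean level of 9.36, above every library of Tceal1 (mean 3.08). Its highest library (17.95) reached into the ranges of both Bex3 (mean 16.03) and Tceal8 (mean 20.4, lowest library 16.77). Tceal7 (1.28) and Tceal5 (1.04) overlapped each other and were apart from Bex4 (0.263), Bex2 (0.122) and Tceal3 (0.121). Even in the transgenic libraries, Tceal5 and Tceal7 were thus low-level transcripts beside Tceal8 and Bex3.

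**Figure D2:**
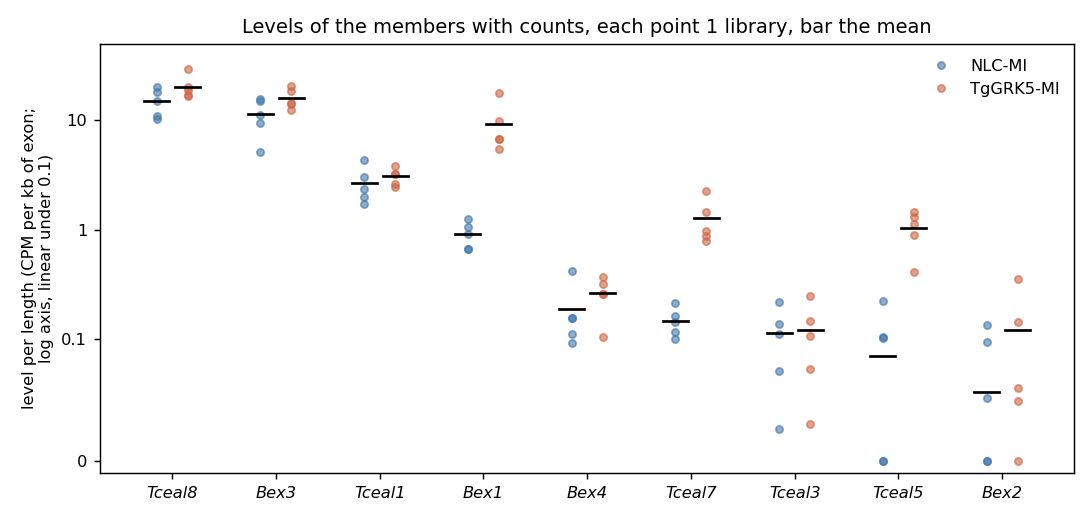
Level per length (CPM per kilobase of exon, log axis that is linear under 0.1) of the 9 members with counts, each point a library and each bar the mean of 5, ordered by the NLC-MI mean. Bex1 moved from 0.914 to 9.36, past Tceal1, while Tceal8 and Bex3 led in both groups.

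Tceal5, Bex1 and Tceal7 lie next to each other on chromosome X, in a block of 25.2 kb (chrX:136200948-136226100). Tceal8 ends 28.6 kb before this block and Tceal9 begins 19.0 kb after it, and the groups overlapped for both. Within 1 Mb on either side of the members' span, 26 genes that are not members were tested, and their log2 fold changes ran from -0.29 to 0.44 with a median of 0.11. None of the 26 reached an unadjusted p under 0.05 or an adjusted p under 0.10, in edgeR or in DESeq2, against 3.85% of all genes tested at that unadjusted p. Genes under the filter were not tested, among them 3 thymosin genes with few counts, named after their values were seen. Their means ± SD (n = 5) in control and transgenic libraries were 0.0262 ± 0.0585 and 0.416 ± 0.536 CPM for Tmsb15l, 0.0601 ± 0.0639 and 0.313 ± 0.132 CPM for Tmsb15b1, and 0.135 ± 0.138 and 0.404 ± 0.103 CPM for Tmsb15b2. These 3 overlap each other, so how reads were divided among them is uncertain. Among the genes tested in the window, log2 fold changes near 3 were seen for Tceal5, Bex1 and Tceal7 alone.

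**Figure D3:**
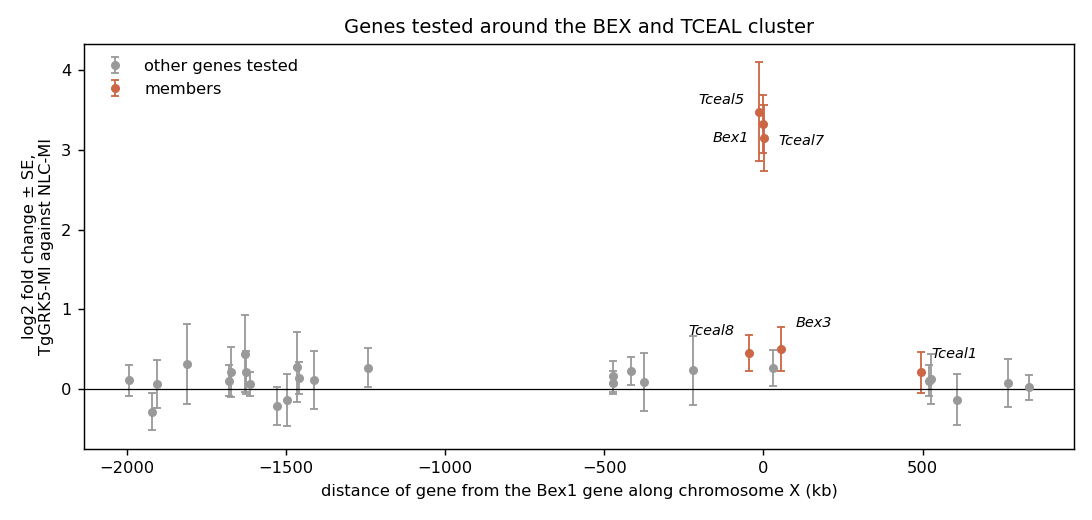
Log2 fold change (TgGRK5-MI against NLC-MI, bars ± SE) of the 32 genes tested around the cluster, against the distance of each gene from Bex1 along chromosome X in kb. Tceal5, Bex1 and Tceal7 lie together between 3.15 and 3.48, and the 26 genes that are not members lie between -0.29 and 0.44.

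Bex1 and Tceal7 overlap on opposite strands: 223 exon bases are shared, 18.8% of the exon bases of Bex1 and 18.3% of those of Tceal7. The library kit does not mark strand, so reads from the shared bases cannot be assigned to either gene by strand. Tceal7 took 12.9% of the joint Bex1 and Tceal7 counts in NLC-MI (15 of 116, exact binomial 95% interval 7.42 to 20.4%) and 12.5% in TgGRK5-MI (125 of 1004, interval 10.5 to 14.7%). Across the transgenic libraries that share ran only from 11.6 to 13.3%. The intervals cover counting error only, and how far the shared bases feed the Tceal7 count was not tested. No other pair of members shared exon bases, and the ratio of Tceal5 to Bex1 was less even: 12.3, 8, 5.31, 22.97 and 20.7 Tceal5 counts per 100 Bex1 counts in TgGRK5-MI replicates 1 to 5.

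**Figure D4:**
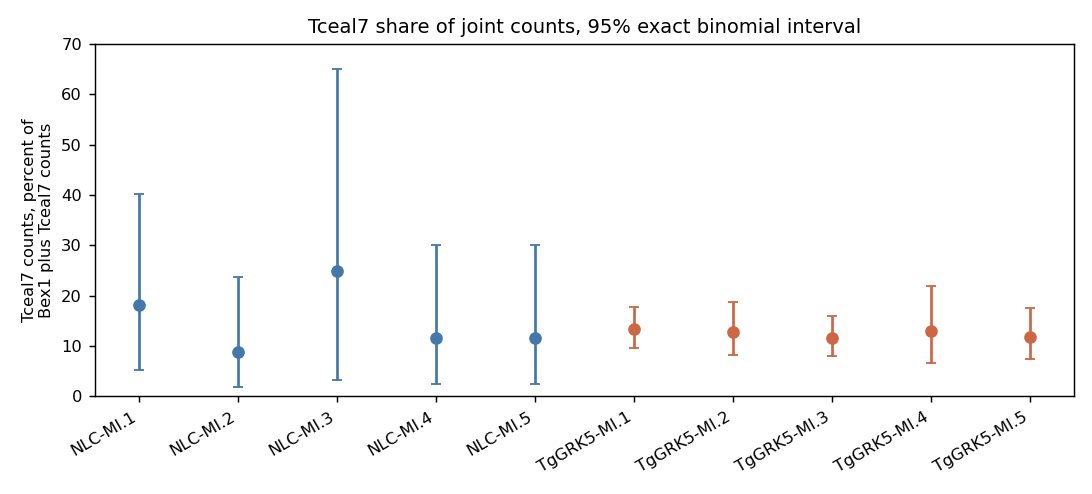
Tceal7 counts as a percentage of Bex1 plus Tceal7 counts in each library, with exact binomial 95% intervals for counting error. The 5 TgGRK5-MI libraries lie between 11.6 and 13.3%, and the NLC-MI libraries, with 8 to 34 joint counts, have wide intervals.

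Some members share transcript sequence. Bex1 and Bex2 transcripts matched at 85.3% over 659 bases, Bex1 and Bex4 at 98.9% over 265 bases, Bex3 and Bex2 at 99.55% over 222 bases, Tceal6 and Tceal3 at 97.7% over 933 bases, and Tceal5 matched Tceal3 at 82.3% over 858 bases and Tceal6 at 81.7% over 913 bases. Bex4 also matched the annotated gene Gm12245 at 98.9% over 357 bases. Counts of Bex2, Bex4, Tceal3 and Tceal6 are thus uncertain where reads could be split between copies, and none of them had more than 20 counts in any library.

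Within TgGRK5-MI, Bex1 was set beside the level of Grk5. Grk5 was at 1509, 922, 1700, 552 and 1428 CPM in replicates 1 to 5. Replicates 3 and 1 were the highest for both genes, but the lowest Grk5 was in replicate 4 and the lowest Bex1 in replicate 2. The order of the libraries was thus not the same for the 2 genes. Replicate 3 also had the highest summed cardiomyocyte markers of its group (132302 CPM) and the lowest summed fibroblast markers (4231 CPM), and in NLC-MI the library with most Bex1, replicate 5, likewise had the highest cardiomyocyte sum (167168 CPM) and the lowest fibroblast sum (4082 CPM). In TgGRK5-MI the cardiomyocyte sum ordered the libraries as Bex1 did, but in NLC-MI it did not. There replicate 3 had the least Bex1 (0.785 CPM) and the next-highest cardiomyocyte sum (96536 CPM). NLC-MI replicate 2 had the next-highest Bex1 (1.25 CPM) and the highest fibroblast sum (24224 CPM). The part of cell makeup in the spread of Bex1 was not tested.

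**Figure D5:**
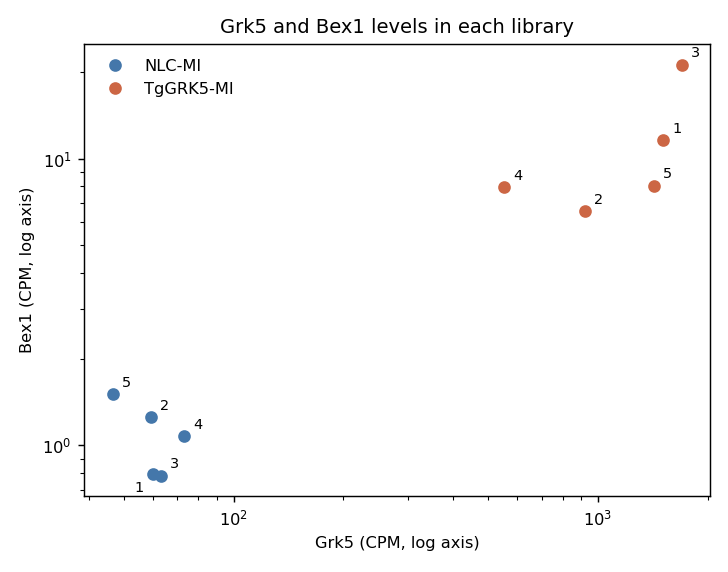
Bex1 level against Grk5 level in each library (both in CPM, log axes), with replicate numbers beside the points. The groups are apart on both axes, and within TgGRK5-MI replicate 3 is highest on both, at 1700 CPM of Grk5 and 21.3 CPM of Bex1.

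The genes whose log2 CPM followed that of Bex1 most closely over the 10 libraries were Tceal7 (Pearson r = 0.97), Gm11967 (0.97), Grk5 (0.96), Rasl10a (0.95) and Scgb1c1 (0.95), among 15231 genes. The libraries fall into the same 2 groups for each of them, so these values are a description. Tceal5 was 48th, with r = 0.85, and Tceal8, Tceal1 and Bex3 had r of 0.45, 0.36 and 0.36. By this measure Tceal7 was closer to Bex1 than its other neighbour Tceal5 was. However, Tceal7 shares 223 exon bases with Bex1 in libraries without strand, and Tceal5 had 0 to 6 counts in NLC-MI.

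Few genes of the pathways to which the family is tied passed a threshold. The 5 lists held 112 genes tested, of which 1 was higher and 3 lower at an unadjusted p under 0.05 (3.57%, against 3.85% of all genes tested, made up of 1.77% higher and 2.08% lower), and 0 had an adjusted p under 0.10 in edgeR's quasi-likelihood test. DESeq2 gave 1 higher and 5 lower at that unadjusted p and 1, Fos, with an adjusted p under 0.10. The count of 4 was 7 without NLC-MI replicate 3 and 2 without NLC-MI replicate 4 or TgGRK5-MI replicate 3.

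Of 10 ARMCX and GPRASP genes, which neighbour the family on chromosome X, 0 were higher and 0 lower (median log2 fold change 0.12). Of 37 transcription elongation genes, Mllt3 was higher and Aff1 lower, both parts of the super elongation complex: Mllt3 was at 16.1 ± 4.0 CPM in control and 24.04 ± 7.11 CPM in transgenic libraries (SD, n = 5 each), and Aff1 had 67.7 ± 12.1 and 51.8 ± 7.18 CPM. The median of that list was 0.02. Of 18 genes of the neurotrophin receptor pathway, where Bex3 acts, 0 were higher and 0 lower (median 0.05). Of 22 proteins that bind AU-rich elements, 0 were higher and 0 lower (median -0.05).

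Of 25 inflammatory transcripts with AU-rich elements, the class to which Bex1 has been linked, 0 were higher and 2 lower, and the median log2 fold change was -0.12. The 2 were Fos, an immediate early transcription factor, and Socs3, a feedback inhibitor of cytokine signalling. Fos was at 191 ± 107 CPM in control and 75.3 ± 9.67 CPM in transgenic libraries (SD, n = 5 each; log2 fold change -1.34, SE 0.33), and Socs3 had 38.7 ± 12.7 and 25.7 ± 5.86 CPM (-0.59, SE 0.24). Neither passed the adjusted threshold in edgeR (adjusted p 0.501 and 1.00), and in DESeq2 Fos did (adjusted p 0.0348) and Socs3 did not (0.822).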

How the data were processed

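Total RNA of isolated cardiomyocytes was sequenced from 5 NLC-MI and 5 TgGRK5-MI mice. The authors deposited raw counts per gene; the submitters' processing notes name Bowtie2, RSEM 1.2.31, DESeq2 and mm10, and the counting strand and annotation version are not given in the sources used here. Depth was 7968779 to 23381527 counts a library, and 3 counts correspond to 0.121 to 0.393 CPM.

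Counts were filtered by group with filterByExpr, scaled by TMM and tested with edgeR 4.0.16 (quasi-likelihood, Benjamini-Hochberg over 15232 genes, adjusted p under 0.10). Members under the filter were fitted without it. DESeq2 1.42.0, limma-voom 3.58.1, other scalings and filters, covariates and leaving out each library were alternatives. Scripts were tested on simulated data. P-values of the fits set the difference between the groups against the spread between these samples. Of the identifiers, 51596 were found in GENCODE M21. Transcripts were compared with blastn 2.17.0, and promoters are from RefSeq.

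The members, the gene lists and the tests were chosen with earlier results of these data known. Named genes are the members, Bex6, Tceal9, Grk5, list genes with an unadjusted p under 0.05 (at most 4 a list), marker genes that define a list and the 5 genes most like Bex1. Marker genes past that p but not described in the text were Ryr2, Gfra3, Abcc9, Cspg4 and Myl7. Some marker genes are not reported here.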

Additional observations from a re-analysis of the deposited data

Results flagged for a closer look

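In TgGRK5-MI, the library of replicate 4 had 75.1 CPM of Tceal8, apart from the other 4 libraries of its group, which had 43.0 to 51.7 CPM. Its gap to the nearest library was larger than Dixon's 95% critical value allows for a group of 5 (0.710). Of 12 groups looked at, this was the only one, and chance gives such a gap in about 1 group in 20.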

How the results depend on the processing

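The count of 3 members called was the same with DESeq2's and library-size scaling, with DESeq2, with limma-voom, without the filter and with library size as a covariate (added after seeing the data). It was 0 with at least 10 counts in every library, where Bex1, Tceal5 and Tceal7 are no longer tested. With Bex1 and Tceal7 summed it was 1. In that fit Tceal7 is no feature of its own, and Tceal5 lost its call with all 10 libraries kept (adjusted p 0.104 in edgeR). DESeq2 called a larger share of all genes higher at an adjusted p under 0.10: 42 of 17398 (0.241%), against 0.0525% in edgeR. Leaving out each library gave 1 to 3 members, with 1 without NLC-MI replicate 1 or 2, and 2 to 7 list genes. With Xist and Y-linked genes as a covariate 2 members were called and the log2 fold change of Tceal5 was 6.23. Xist had at most 12 counts in any library, so that covariate does not separate sexes here. Tceal5 lost its call in 10 settings (adjusted p 0.1002 to 0.321) and Tceal7 in 3 (0.1003 to 0.107). Tceal3 turned to -0.13 and -0.38 without NLC-MI replicate 4 and TgGRK5-MI replicate 2 (no filter, added after seeing the data). Same-numbered libraries had correlations of -0.34 to 0.66 (mean 0.17), and whether any of them share a preparation was not tested. With the replicate number as a block 3 members and 4 list genes were called. Log2 fold changes were then 3.17 for Bex1, 3.01 for Tceal7 and 3.63 for Tceal5. Control counts of 0 to 6 limit Tceal5 and Tceal7.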

Other observations

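After the data had been seen, the levels of Bex3, Tceal1, Tceal8 and the family gene Tceal9, which is no member, were set against the summed level of each of 10 marker lists over the 10 libraries (log2 scale, two-sided permutation test, 100000 resamples, adjusted over all 40 relations). None of the 30 relations of Bex3, Tceal1 and Tceal8 had an adjusted p under 0.05, by Pearson or Spearman. The lowest adjusted p of a member was for Tceal1 against the atrial sum, with r = -0.78 (permutation p = 0.00973, adjusted 0.0649) and rho = -0.76 (permutation p = 0.0149, adjusted 0.0854), and r = -0.79 without the 2 libraries farthest from the median. Bex3 followed, against the sums of smooth muscle and pericyte (r = 0.72, adjusted permutation p = 0.0673), Schwann cell (0.70, 0.0758) and cardiomyocyte markers (-0.73, 0.0826), with r of 0.68, 0.56 and -0.52 without the 2 farthest libraries. The atrial sum was mostly Nppa, at a mean of 2395 CPM in NLC-MI against 47.0 CPM for Myl4, the next in level. A relation with that sum is therefore chiefly one with Nppa, and the other atrial markers were not tested apart. The permutations pool both genotypes. With each group centred on its own mean, r was -0.80 for Bex3 against the cardiomyocyte sum and 0.91 against the skeletal muscle sum, where the pooled r was 0.58 (0.06 without the 2 farthest libraries); the centred values were not tested.

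Tceal9 passed for 4 lists (Schwann cell, macrophage, smooth muscle and pericyte, and cardiomyocyte). Against the cardiomyocyte sum it had r = -0.86 (permutation p = 0.00136, adjusted 0.0136) and rho = -0.85 (permutation p = 0.00287, adjusted 0.0474), with r = -0.78 without the 2 farthest libraries. Against the Schwann cell sum it had r = 0.93 (permutation p = 0.00015, adjusted 0.006) and rho = 0.84 (permutation p = 0.00367, adjusted 0.0474), with r = 0.86 without the 2 farthest. For the macrophage sum, r was 0.87 (permutation p = 0.00116, adjusted 0.0136), or 0.93 without the 2 farthest. There rho was 0.89 (permutation p = 0.00124, adjusted 0.0474). For the smooth muscle and pericyte sum, r was 0.87 (permutation p = 0.00129, adjusted 0.0136), or 0.79 without the 2 farthest. There rho was 0.83 (permutation p = 0.00474, adjusted 0.0474). The marker sums move together across libraries, so these relations are not independent of each other.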
